A study of Homo sapiens with 4 samples.

Results

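The 10 genes described here, ATF3, ATF4, ATF5, CEBPB, CEBPD, CEBPG, MAFF, MAFG, MAFK and BATF3, encode basic leucine zipper (bZIP) transcription factors of the ATF, C/EBP, small MAF and BATF families. They were chosen by name, as bZIP factors that pair with FOS and JUN proteins or with ATF4, with earlier results of these data known. They are 10 of the 58735 genes in the deposited count table. All 10 had a mean of at least 1 CPM (reads scaled to a common library total) over the 4 libraries and were among the 14585 genes kept for testing.

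RNA was sequenced from MDA-MB-231, a long-established human line of triple-negative breast cancer, after transduction with TetOn-H2BeGFP, a histone reporter that doxycycline switches on. All 4 populations had received doxycycline at 5 μg/ml for 3 days and a Claret and a Violet dye, followed by a chase of 12 days in which dividing cells dilute each label. The 1% of cells retaining the most Claret, eGFP or Violet were sorted as 3 slow-cycling populations, and a Bulk population was sorted without a fluorescence gate, so label-retaining cells are not removed from it. Each population gave 1 library, so no difference below has a replicate check, and the labels do not say whether the reporter cells are 1 clone. In all 4 samples the treatment field names another sort than the title. Libraries are called here by their titles, which the columns of the deposited tables also carry, and with the treatment field in place of the titles the directions below change as stated.

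Summed reads were 16033922 in Bulk and between 15508179 and 16976909 in the slow-cycling libraries, so that 3 reads, the upper limit that a count of 0 allows, correspond to 0.177 to 0.193 CPM. The mesenchymal genes VIM, CD44, AXL, CAV1 and MSN were abundantly read in every library, while ESR1 had 3 to 7 reads, PGR 0 and CDH1 0 to 3. ERBB2 had 1415 to 1542 reads, EPCAM 28 to 61 and GATA3 74 to 95. The low hormone receptor and CDH1 reads match the labelled cell line, for which a low rather than absent ERBB2 transcript is known.

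bZIP proteins bind DNA as dimers held together by a leucine zipper, and the choice of partner sets which site is bound. ATF4 is the main effector of the integrated stress response: kinases that phosphorylate the translation factor eIF2α slow protein synthesis overall while ATF4 mRNA is translated more, and ATF4 then activates genes of amino acid supply and redox balance together with C/EBP partners such as CEBPG and CEBPB. ATF3 and ATF5 act in the same response, CEBPB and CEBPD are known for inflammatory and acute-phase genes, the small MAF proteins have no activation domain and lend DNA binding to NRF2 and BACH1, and BATF3 pairs with JUN proteins.

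Promoter sequence is shown for ATF3 and CEBPG because both were among the genes higher in every slow-cycling library and both held the composite C/EBP-ATF motif, searched as TGATGNAA on both strands of the 250 bases before each RefSeq start (GRCh38.p14). RefSeq promoters were matched for 7 of the 10 genes, 14 promoters in all. CEBPD, MAFK and BATF3 had no entry. ATF3 and CEBPG had 2 promoters each, and only the promoter shown held the motif. The motif, in capitals, is in 3.14% of 35116 promoters of that length. The ATF3 stretch is chr1:212565189-212565250 on the plus strand, with the motif 191 to 184 bases before the start, and the CEBPG stretch is chr19:33374044-33374105 on the plus strand, with the motif 42 to 35 bases before the start.
ATF3: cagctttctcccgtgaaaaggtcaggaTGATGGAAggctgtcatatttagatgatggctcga
CEBPG: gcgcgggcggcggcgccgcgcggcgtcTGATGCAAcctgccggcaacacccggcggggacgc
These are letter matches and no binding was measured.

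Of the 10 genes, ATF3, ATF4, CEBPB and CEBPG were higher than Bulk in all 3 slow-cycling libraries, ATF5 was lower in all 3, and MAFF was higher in Claret and eGFP. CEBPD, MAFG, MAFK and BATF3 were called in none. A gene is called here when the exact conditional binomial test on the reads of a library pair, with Benjamini-Hochberg adjustment over the 14585 genes, gave an adjusted p under 0.05 and the log2 ratio was at least 1 in size. That test compares libraries, not conditions. In Claret 5 of the 10 were called higher and 1 lower, against 11.2% and 6.67% of all genes tested. In eGFP 5 were higher and 1 lower, against 11.9% and 7.6%, and in Violet 4 were higher and 1 lower, against 11.3% and 7.01%.

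Their median log2 ratio to Bulk was 0.81 (Claret), 0.83 (eGFP) and 0.68 (Violet), and that of all genes tested was -0.007, -0.01 and 0.001. Calls in all 3 libraries covered 40.0% of the 10 genes on the higher side and 10.0% on the lower, beside 8.36% and 4.92% of all genes tested. As the 10 were chosen with earlier results of these data known, these shares are no independent test. The 3 comparisons share the single Bulk library and are therefore not independent of each other. With groups from the treatment field, 1 gene was higher and 4 were lower in Claret, and 0 were called in eGFP and in Violet, since that field calls a slow-cycling library un-gated. A lower share of some cells and less RNA per cell cannot be told apart in such sorted populations.

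**Figure D1:**
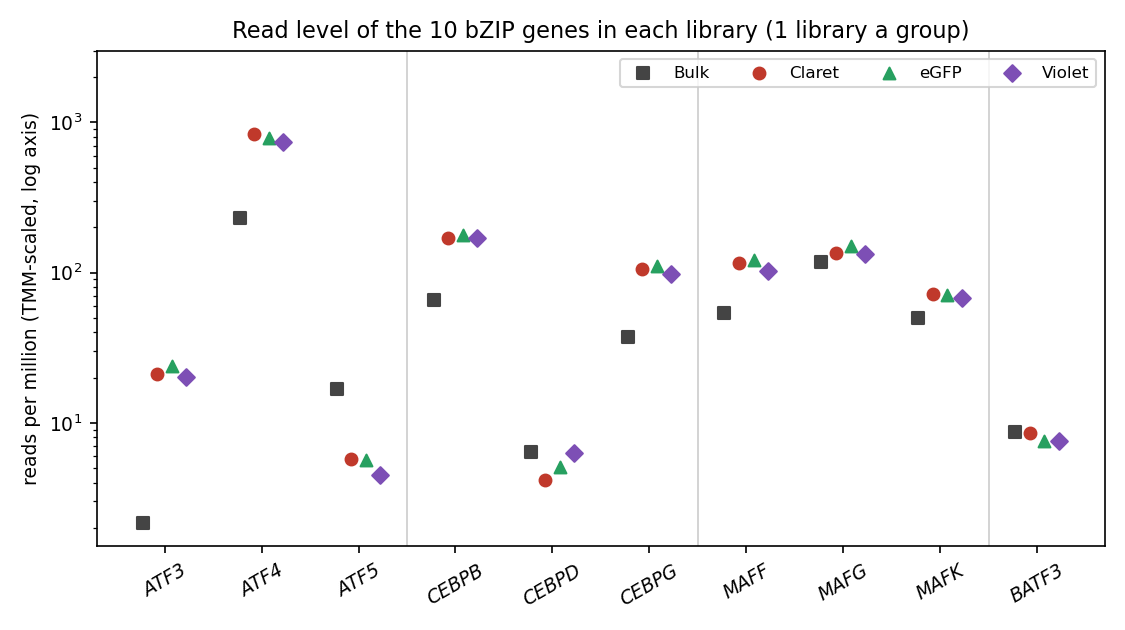
CPM (log axis, TMM-scaled, not adjusted for gene length) of the 10 genes in the 4 libraries, 1 point a library, with families separated by vertical lines. The 3 slow-cycling points of ATF3 lie at 20.1 to 23.9 CPM above the Bulk point at 2.16, and those of ATF5 at 4.49 to 5.72 below the Bulk point at 16.7.

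**Figure D2:**
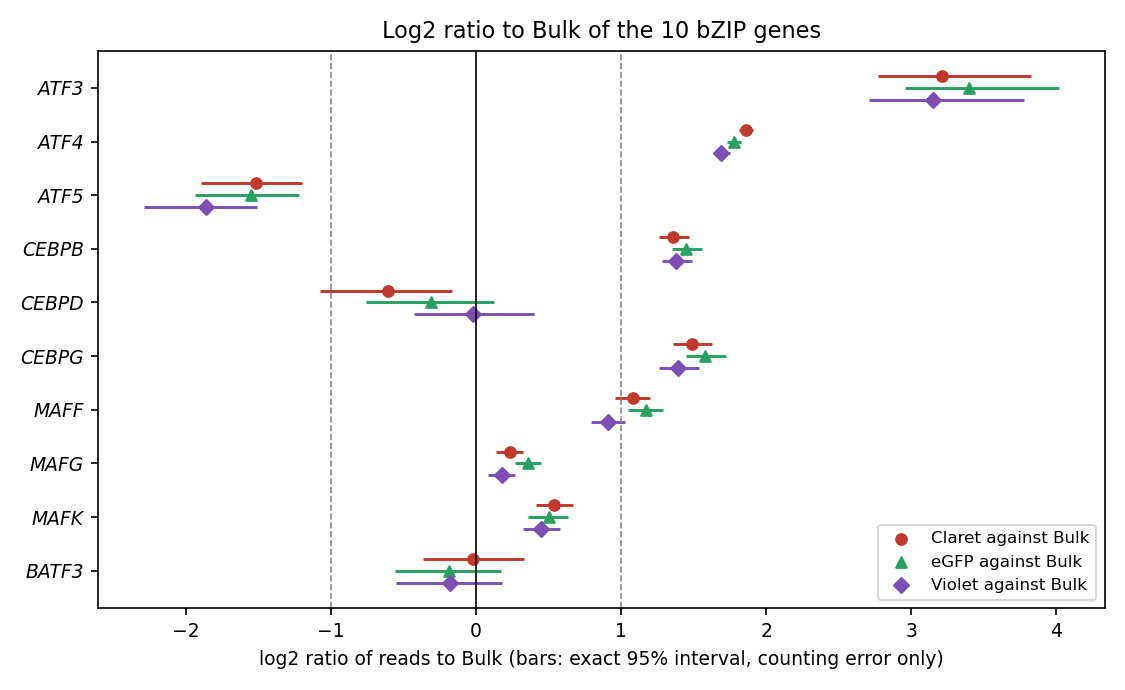
Log2 ratio of reads to Bulk for each gene and slow-cycling library, with exact 95% intervals that cover counting error only and dashed lines at 1 in size. The intervals of ATF3, ATF4, CEBPB and CEBPG lie wholly above 1 in all 3 libraries, those of ATF5 wholly below -1, and those of BATF3 hold 0.

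ATF3 (ENSG00000162772, chr1:212565334-212620777, plus strand), a stress-induced factor that can repress or activate according to its partner, had 34 reads in Bulk, with 356 reads for Claret, 380 for eGFP and 318 for Violet. The Bulk library was low and the slow-cycling libraries lay close together, at 4.9 to 5.89 FPKM (the deposited values, scaled for library depth and gene length) against 0.541. Its log2 ratio to Bulk was 3.21 in Claret (95% interval 2.77 to 3.83), 3.40 in eGFP (2.96 to 4.02) and 3.15 in Violet (2.71 to 3.78), or 9.25-fold, 10.5-fold and 8.88-fold. All intervals here cover counting error only, since the reads carry no molecular identifiers and each group is 1 library. ATF3 held places 75, 65 and 67 from the highest ratio among the genes tested, and it had the largest ratio of the 10 in each library. In Bulk it was also the least abundant of them per length. None of its exons overlaps another gene in the annotation, and none of its 31-base words recurs in another gene.

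ATF4 (ENSG00000128272, chr22:39519695-39522685, plus strand) had 3629 reads in the Bulk library against 14198 (Claret), 12544 (eGFP) and 11767 (Violet). It was the most abundant of the 10 per length in every library, with 92.9 FPKM in Bulk and 292 to 333 FPKM in the slow-cycling libraries. In Bulk 97.5% of the genes tested had a lower FPKM, and in each slow-cycling library 99.5%. The log2 ratio to Bulk was 1.86 in Claret (1.81 to 1.91), 1.78 in eGFP (1.73 to 1.83) and 1.69 in Violet (1.64 to 1.75), which is 3.63-fold, 3.43-fold and 3.23-fold. All 3 libraries stood above Bulk by far more than the counting error. Of the 31-base words in its exons, 29.73% also occur in other genes, and the pseudogene ATF4P4 shares the most. ATF4P3 had 6 Bulk reads, then 34 (Claret), 31 (eGFP) and 22 (Violet), and ATF4P1, ATF4P2 and ATF4P4 had 0 or 1 read in every library.

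ATF5 (ENSG00000169136, chr19:49928702-49933935, plus strand), which like ATF4 is translated more when eIF2α is phosphorylated and is known for the mitochondrial stress response, had 263 Bulk reads and 97 in Claret, 89 in eGFP and 71 for Violet. Here Bulk was the high library, with 5.73 FPKM against 1.5 to 1.93. Log2 ratios to Bulk were -1.52 in Claret (-1.90 to -1.20), -1.55 in eGFP (-1.94 to -1.22) and -1.86 in Violet (-2.29 to -1.51), so that Bulk was 2.88-fold, 2.93-fold and 3.64-fold higher. ATF5 was the only one of the 10 called lower, in each comparison with Bulk. On the opposite strand NUP62, a nuclear pore gene, shares 626 exon bases with ATF5, 21.19% of its exon length. NUP62 had 2150 reads in Bulk, with 1100 reads for Claret, 970 for eGFP and 938 for Violet, and was also called lower in all 3. Use of strand in the counting is not given in the sources used here, so reads of ATF5 and NUP62 cannot be told apart in the shared exons.

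Of the 3 RefSeq promoters of ATF5, 1 held the AP-1 motif TGACTCA, which FOS-JUN dimers bind. This motif is in 4.2% of all promoters of this length. The same promoter held the MAF element TGCTGANTC on the reverse strand, which 0.894% hold. Both are shown because ATF5 was the gene that went the other way. The AP-1 stretch is chr19:49928707-49928735 and lies 188 to 182 bases before the start. The MAF element, chr19:49928745-49928773, lies 151 to 143 bases before it. Read with flanking bases, both overlap an exon of another ATF5 transcript.
ATF5 AP-1: ggagagtgctgTGACTCAtgctggactct
ATF5 MAF element: gggtttctcaGAGTCAGCAgctgggggat
Capitals mark the match, printed on the plus strand. AP-1, MAF and antioxidant motifs have letters in common and can overlap.

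Summed over ATF3, ATF4 and ATF5, FPKM was 99.15 in Bulk, 339.9 (Claret), 320.0 (eGFP) and 297.9 (Violet). Other ATF genes were also read and are not in this sum. ATF4 held 93.7% of that sum in Bulk and 97.6 to 97.9% in the slow-cycling libraries. The share of ATF5 was 5.78% in Bulk and 0.502 to 0.589% in the others, while that of ATF3 was 0.546% in Bulk and 1.53 to 1.84%. In Bulk ATF5 thus stood above ATF3 per length, and in every slow-cycling library below it.

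CEBPB (ENSG00000172216, chr20:50190734-50192689, plus strand), an activator of interleukin and acute-phase genes that is also made as a shorter inhibitory form, had 1034 reads in the Bulk library against 2864 (Claret), 2848 (eGFP) and 2699 (Violet). The slow-cycling libraries lay together above Bulk, at 85.9 to 91.1 FPKM against 34.0. The log2 ratio was 1.36 in Claret (1.26 to 1.47), 1.45 in eGFP (1.35 to 1.56) and 1.38 in Violet (1.28 to 1.49), or 2.57-fold, 2.73-fold and 2.60-fold. Gene counts do not separate the protein forms of this single-exon gene. The opposite-strand transcript CEBPB-AS1 shares 231 exon bases, 11.81% of the exon length of CEBPB, and had 9 Bulk reads and 53 in Claret, 28 in eGFP and 40 for Violet. It was called higher in all 3 libraries, with log2 ratios of 2.22, 1.44 and 1.93. As use of strand is not given, reads of CEBPB and CEBPB-AS1 cannot be told apart in the shared bases.

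CEBPG (ENSG00000153879, chr19:33373330-33382686, plus strand), a short C/EBP protein with no activation domain of its own and a known partner of ATF4, had 585 reads in Bulk, with 1778 reads for Claret, 1766 for eGFP and 1545 for Violet. Again, Bulk was the low library, with 8.53 FPKM against 21.8 to 25.1. Log2 ratios to Bulk were 1.49 in Claret (1.36 to 1.63), 1.58 in eGFP (1.45 to 1.72) and 1.39 in Violet (1.26 to 1.54), or 2.82-fold, 2.99-fold and 2.63-fold. No gene overlaps it. Its neighbour CEBPA, 70.8 kb away, had 54 Bulk reads, then 49 (Claret), 56 (eGFP) and 57 (Violet) and was not called.

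CEBPD (ENSG00000221869, chr8:47736909-47739086, minus strand), an acute-phase and cytokine-induced factor, had 100 reads in the Bulk library against 70 (Claret), 81 (eGFP) and 99 (Violet). Claret was lowest and Violet close to Bulk, and no comparison with Bulk was called. The log2 ratio was -0.61 in Claret (-1.08 to -0.17), -0.31 in eGFP (-0.76 to 0.12) and -0.02 in Violet (-0.43 to 0.40). The Claret interval excludes 0 and the other 2 hold it, so no difference was detectable at this depth in eGFP or Violet. CEBPD had at most 2.95 FPKM in any library.

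The sum of CEBPB, CEBPD and CEBPG, without CEBPA or DDIT3, was 45.5 FPKM in Bulk, 111.9 (Claret), 118.5 (eGFP) and 110.6 (Violet). CEBPB held 74.8% of it in Bulk and 76.9 to 77.7% in the slow-cycling libraries, and CEBPG 18.8% and 19.7 to 21.2%. The share of CEBPD was 6.49% in Bulk and 1.69 to 2.56% in the others. The sum was higher in the slow-cycling libraries, with CEBPB and CEBPG in similar proportion to each other.

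**Figure D3:**
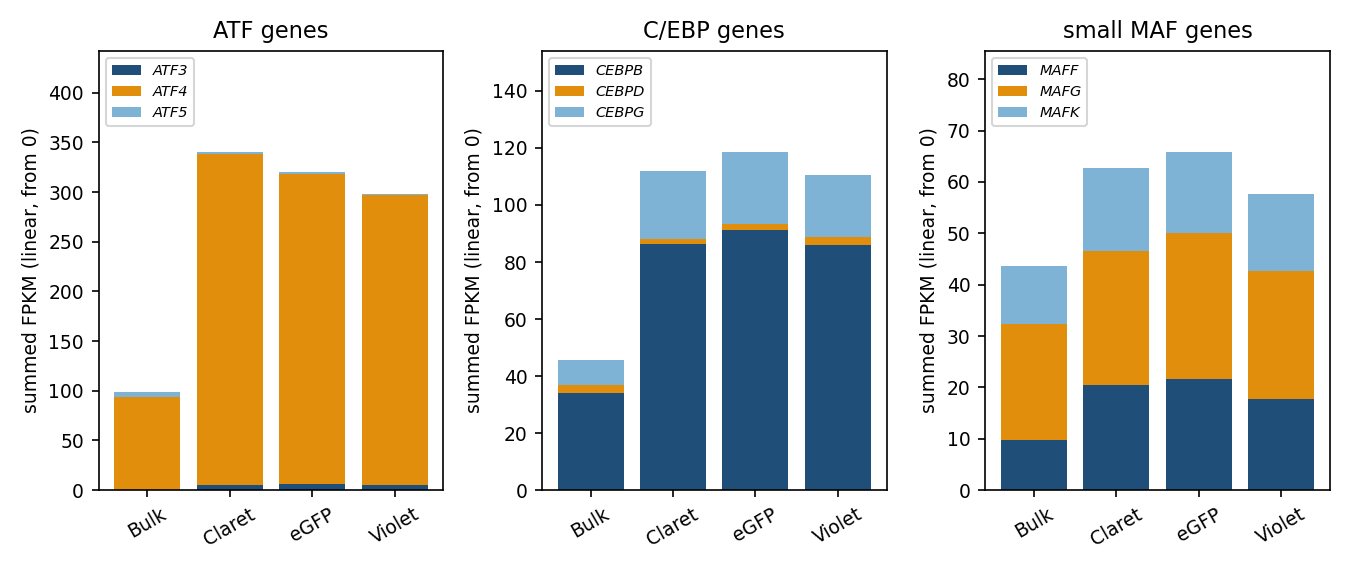
Summed FPKM (linear axis from 0) of the ATF, C/EBP and small MAF genes in each library, with each gene's part stacked. ATF4 fills 93.7% or more of the ATF bars, and the slow-cycling C/EBP bars reach 110.6 to 118.5 FPKM against 45.5 in Bulk.

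MAFF (ENSG00000185022, chr22:38200767-38216511, plus strand), the small MAF known to be induced by cytokines and stress, had 854 Bulk reads and 1942 in Claret, 1935 in eGFP and 1606 for Violet. All 3 slow-cycling libraries were above Bulk, at 17.8 to 21.6 FPKM against 9.79, and Violet was the lowest of them. Log2 ratios to Bulk were 1.08 in Claret (0.96 to 1.20) and 1.17 in eGFP (1.05 to 1.29), both called, and 0.91 in Violet (0.79 to 1.03), not called. MAFF lay at the threshold: after correction for GC content its log2 ratio was 0.89 in Claret and 0.98 in eGFP, neither called, and on the log2(FPKM + 1) scale it was 0.99 in Claret. PLA2G6, which overlaps MAFF on the opposite strand without shared exon bases, had 156 reads in Bulk, with 611 reads for Claret, 652 for eGFP and 608 for Violet. Whether unspliced PLA2G6 transcripts added reads to MAFF was not tested.

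A MAFF promoter held the cyclic AMP response element TGACGTCA, present in 1.65% of promoters. The stretch is shown because ATF and CREB proteins bind this element and no other matched promoter of the 10 genes held it. It is chr22:38201929-38201958, 54 to 47 bases before the start. The antioxidant element TGACNNNGC, in 10.9% of promoters, was found at MAFF on the reverse strand (chr22:38201862-38201890, 122 to 114 bases before the start) and at CEBPB (chr20:50190763-50190791, 57 to 49 bases before it). Read with flanking bases, all 3 stretches overlap an annotated exon of their own gene, and the CEBPB stretch lies within its single exon.
MAFF CRE: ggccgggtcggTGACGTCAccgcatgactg
MAFF antioxidant: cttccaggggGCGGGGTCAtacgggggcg
CEBPB antioxidant: ggggccggcgTGACGCAGCggttgctacg
Capitals mark the match, and all are printed on the plus strand. The C/EBP palindrome TTGCGCAA, in 0.131% of promoters, was in none of the 14 promoters searched, nor was any motif of the search in those of ATF4 and MAFG.

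MAFG (ENSG00000197063, chr17:81918270-81927714, minus strand), the most abundant small MAF in every library, had 1837 reads in the Bulk library against 2313 (Claret), 2374 (eGFP) and 2080 (Violet). The slow-cycling libraries lay slightly above Bulk, at 24.8 to 28.5 FPKM against 22.6. The log2 ratio was 0.23 in Claret (0.14 to 0.32), 0.36 in eGFP (0.27 to 0.45) and 0.18 in Violet (0.08 to 0.27), intervals that exclude 0 but lie well inside the threshold of 1. SIRT7 on the same strand shares 105 exon bases with it.

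MAFK (ENSG00000198517, chr7:1530714-1543043, plus strand) had 786 Bulk reads and 1228 in Claret, 1118 in eGFP and 1076 for Violet. All 3 were above Bulk, at 15.0 to 16.2 FPKM against 11.3, and none was called. Log2 ratios to Bulk were 0.54 in Claret (0.41 to 0.67), 0.50 in eGFP (0.36 to 0.63) and 0.45 in Violet (0.32 to 0.58). TMEM184A on the opposite strand shares 809 exon bases, 18.15% of the exon length of MAFK, and had 198 reads in Bulk, with 256 reads for Claret, 197 for eGFP and 292 for Violet. Reads of MAFK and TMEM184A cannot be told apart in the shared exons.

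The small MAF sum was 43.77 FPKM in Bulk, 62.72 (Claret), 65.72 (eGFP) and 57.67 (Violet). MAFF held 22.4% in Bulk and 30.9 to 32.8% in the slow-cycling libraries, MAFG 51.7% and 41.6 to 43.3%, and MAFK 25.9% and 23.9 to 26.1%. The order of the lesser members therefore changed: MAFK stood above MAFF in Bulk, by 1.16-fold per length (1.05 to 1.28), and below it in each slow-cycling library.

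BATF3 (ENSG00000123685, chr1:212686418-212699985, minus strand), a bZIP protein without an activation domain that is known for its role in dendritic cells, had 136 reads in the Bulk library against 144 (Claret), 120 (eGFP) and 120 (Violet). The libraries overlapped in level, at 2.76 to 3.23 FPKM. The log2 ratio was -0.02 in Claret (-0.37 to 0.33), -0.19 in eGFP (-0.56 to 0.17) and -0.18 in Violet (-0.55 to 0.18), so that a change of either sign within these bounds was not detectable. BATF3 lies 65.6 kb from ATF3 on chromosome 1, and the 2 genes had very different ratios to Bulk. Its known immune-cell partners were scarcely read: IRF4 had 6 Bulk reads, then 1 (Claret), 3 (eGFP) and 1 (Violet), and IRF8 had 1 read in Bulk and 0 in the others.

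Per length, ATF4, CEBPB and MAFG were the first 3 of the 10 in every library. In Bulk MAFK, MAFF, CEBPG, ATF5, BATF3, CEBPD and ATF3 followed in that order. In all 3 slow-cycling libraries CEBPG, MAFF, MAFK and ATF3 came next, and BATF3, ATF5 and CEBPD were the last 3. Exact intervals of the FPKM ratio of neighbours held 1 for BATF3 and CEBPD in Bulk, for ATF5 and CEBPD in Claret, for BATF3, CEBPD and ATF5 in eGFP and for CEBPD and BATF3 in Violet, so the order among those genes was not resolved by counting. All other neighbours differed beyond counting error.

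Between the slow-cycling libraries none of the 10 genes was called by the exact binomial test, against 0.713% of genes tested when Claret was set against eGFP, 0.788% against Violet, and 0.932% for the eGFP-Violet pair. With so low a background, the 0 is not a result about these genes. Intervals of single genes, unadjusted, excluded 0 for 3 genes in the first pair, 4 in the next and 5 in the last. This is a looser rule than the call, and the share of all genes that meet it was not counted. These numbers therefore do not set the 10 genes apart. In the last pair eGFP was above Violet for 8 of 10 genes, with a median log2 ratio of 0.13 against 0.006 over all genes tested. Claret was likewise above Violet for 8 of 10 genes, with a median of 0.09 against 0.008. Both pairs share the single Violet library. MAFF was higher in eGFP than in Violet by 0.26 on the log2 scale (0.17 to 0.36) and in Claret than in Violet by 0.17 (0.08 to 0.27). CEBPG was 0.19 higher in eGFP than in Violet (0.09 to 0.29), and MAFG 0.18 higher (0.10 to 0.27). ATF4 was highest in Claret, by 0.08 over eGFP (0.05 to 0.12) and by 0.17 over Violet (0.13 to 0.20). CEBPD was the widest of these differences, with a log2 ratio of -0.59 for Claret against Violet (-1.07 to -0.15). Without replicates, differences of this size cannot be set against the spread between cultures.

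Of 36 further bZIP genes 30 were kept. In Claret and eGFP 7 of them were called higher and in Violet 6, beside 11.2 to 11.9% of all genes tested. None of the 30 was called lower in any of the 3 comparisons, beside 6.67 to 7.6%. The median log2 ratio was 0.36 (Claret), 0.31 (eGFP) and 0.32 (Violet). Those called higher in all 3 included DDIT3, JDP2, MAFA, XBP1 and CREBRF. DDIT3 (CHOP), itself a C/EBP relative that ATF4 induces, had 101 Bulk reads and 541 in Claret, 510 in eGFP and 426 for Violet, log2 ratios of 2.29, 2.30 and 2.05. JDP2, a JUN partner related to ATF3, had 104, 321, 354 and 366 reads in the same order, log2 ratios of 1.74 in eGFP and 1.79 in Violet, with Claret slightly lower. XBP1, a factor of the unfolded-protein response, had 1700, 4648, 3953 and 3738 reads, log2 ratios of 1.34, 1.21 and 1.13. The large MAF gene MAFA had 10 reads in Bulk against 26 to 35, and CREBRF had 357 against 814 to 887. On the log2(FPKM + 1) scale, which understates changes of low genes, MAFA (0.39 to 0.54) and CREBRF (0.77 to 0.94) were called in no library, nor JDP2 in Claret (0.96). With the whole interval required past 1, MAFA lost its calls in all 3 libraries and CREBRF in Claret.

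Of the small MAF partners none was called, beside 11.2 to 11.9% of all genes tested called higher and 6.67 to 7.6% lower. Among so few genes, the lack of a call is not a result about them. NFE2L2, which encodes NRF2, had log2 ratios of 0.72 (Claret), 0.65 (eGFP) and 0.57 (Violet). BACH1, a repressor that competes with NRF2 for small MAF proteins, had 0.58, 0.49 and 0.76. Of the 7 FOS and JUN genes JUNB (log2 ratios 1.94, 2.16 and 1.70) and JUND (1.22, 1.27 and 1.04) were called higher in all 3. FOSL2 (-0.95, -1.03 and -0.81) was called lower in eGFP. Of all genes tested 8.36% were called higher in all 3 libraries, and 7.6% were called lower in eGFP. The JUND call in Violet (0.93 to 1.15) was lost with DESeq2 size factors, on the log2(FPKM + 1) scale (0.98), after GC correction (0.87) and by a rule on the whole interval, and that rule also ended the FOSL2 call.

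**Figure D4:**
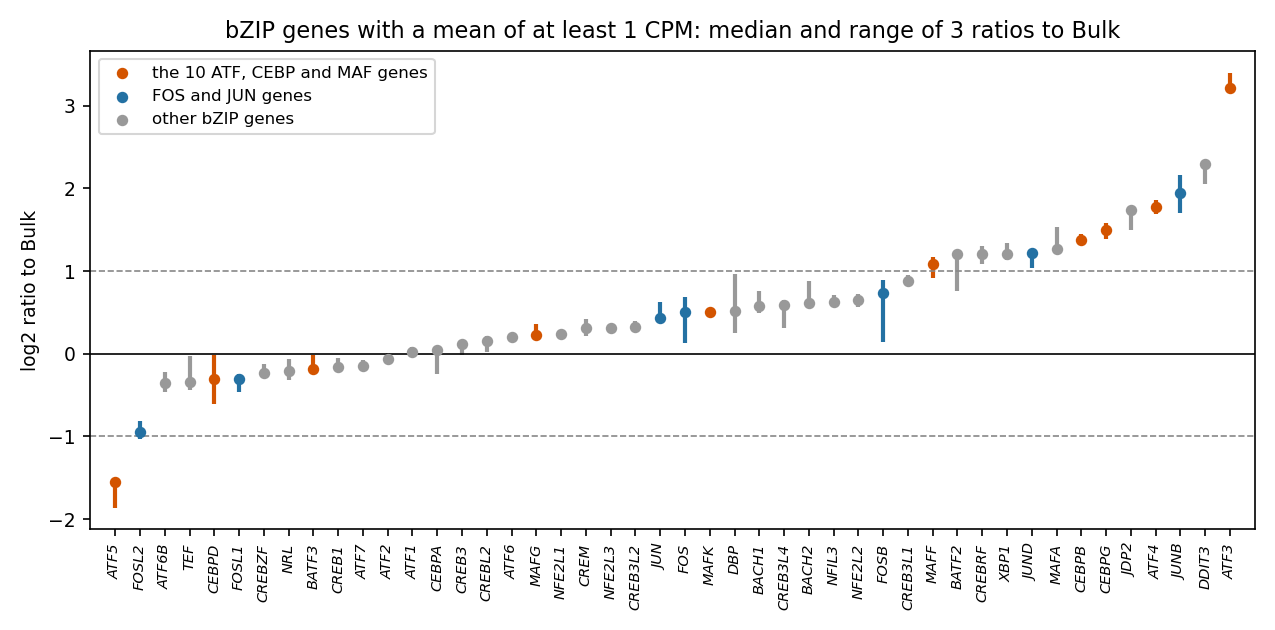
Median (point) and range (bar) of the 3 log2 ratios to Bulk for the bZIP genes shown, ordered by the median, with the 10 genes in orange, the FOS and JUN genes in blue and other bZIP genes in grey. ATF3 is at the high end and ATF5 at the low end of all bZIP genes shown.

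Genes of the pathways in which these factors act were counted from lists of known members. Those lists too were chosen with earlier results of these data known, so their counts are no independent test. The eIF2α list held 4 kinases, the substrate subunit, 2 phosphatase subunits, and DELE1 and OMA1, which relay mitochondrial stress. Of these 9 genes 1 was called higher in Claret, beside 11.2% of all genes tested, and none in eGFP or Violet. That gene, named after its values were seen, was PPP1R15A, the stress-induced phosphatase subunit (GADD34), with log2 ratios of 1.04, 0.90 and 0.89, and its call in Claret was lost after GC correction (0.98), on the log2(FPKM + 1) scale and by the whole-interval rule. In each comparison 3 of the 9 genes had intervals above 0 and 3 below, a share not counted over all genes. The lowest ratios were those of EIF2S1, the substrate subunit, at -0.97 to -0.74, none of them called. EIF2S1 too was named after its values were seen. The list's median was 0.09 (Claret), 0.14 (eGFP) and 0.05 (Violet), near that of all genes tested. Transcript levels do not measure phosphorylation of eIF2α.

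Of 24 ATF4 targets 23 were kept. In Claret and in eGFP 18 were called higher and in Violet 17, beside 11.2 to 11.9% of all genes tested. No target was called lower, beside 6.67 to 7.6%, and all 23 had intervals above 0 in each of the 3 comparisons. The median log2 ratio was 2.17 (Claret), 1.98 (eGFP) and 2.12 (Violet). INHBE, which encodes an activin subunit, had 1 read in Bulk, 620 (Claret), 615 (eGFP) and 431 (Violet), log2 ratios of 7.61 (6.69 to 14.48), 7.69 (6.77 to 14.56) and 7.19 (6.26 to 14.05). CHAC1, which degrades glutathione, had 33, 1810, 1652 and 1488 reads in the same order, log2 ratios of 5.59, 5.55 and 5.41. NUPR1, a stress-induced chromatin protein, had 36, 742, 656 and 688 reads, log2 ratios of 4.19, 4.10 and 4.18. ASNS, TRIB3, SESN2, PHGDH, PSAT1, SLC7A11 and SLC7A5, which serve amino acid synthesis and transport and stress signalling, were also among the 17 called higher in all 3 libraries.

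Of 17 C/EBP-linked inflammatory genes 11 were kept, with 5 called higher in Claret and in eGFP, 4 in the Violet library, and 1 lower in each. PTGS2, the inducible prostaglandin synthase, had 105 reads in Bulk, with 1153 reads for Claret, 1381 for eGFP and 1207 for Violet, log2 ratios of 3.33, 3.68 and 3.49. The interleukin 1 genes IL1A (3.29, 3.52 and 3.37) and IL1B (2.60, 2.55 and 2.82) were called higher in all 3 libraries. The chemokine gene CCL2 had 1779 reads in Bulk against 389, 511 and 442, log2 ratios of -2.29, -1.81 and -2.01. CCL2 was the only gene of the list called lower, and the list's medians were 0.74, 0.77 and 0.78. Of all genes tested, 11.2 to 11.9% were called higher in a comparison and 6.67 to 7.6% lower.

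Of 16 small MAF and NRF2 targets 1 was called higher in each library and none lower. The list's medians were 0.14, 0.22 and 0.11. The share called was 6.25% in each library, beside 11.2 to 11.9% of all genes tested called higher. With 16 genes, 1 call is too few to set the list apart from that background.

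**Figure D5:**
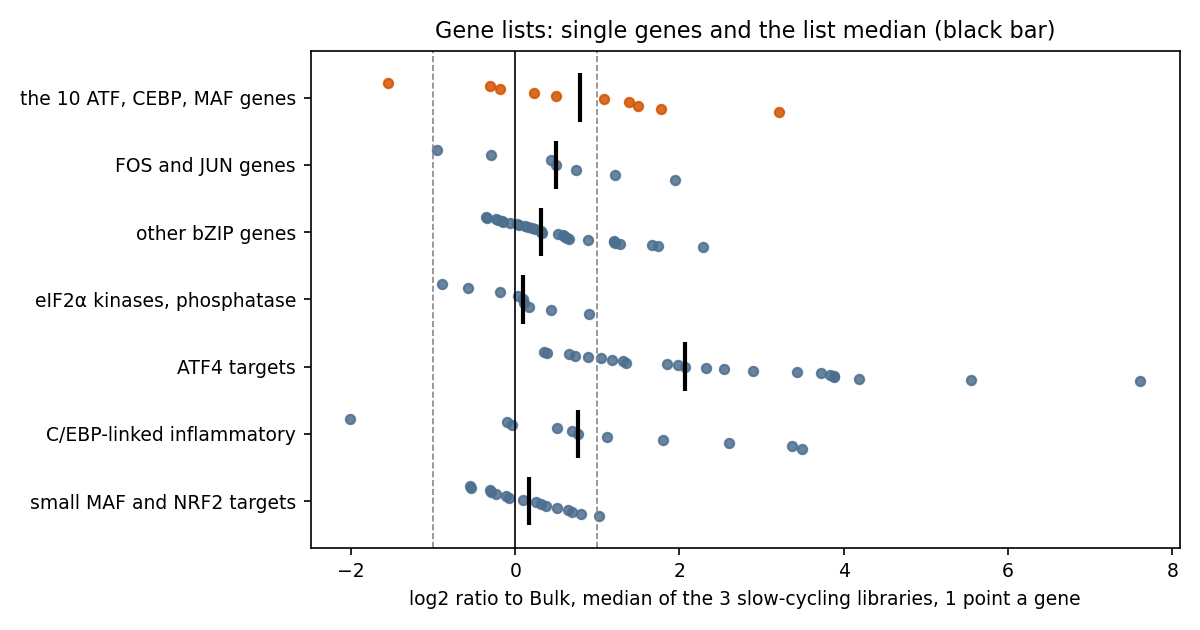
Median over the slow-cycling libraries of the log2 ratio to Bulk for each gene (point) of 7 lists, with the list's median as a black bar and dashed lines at 1 in size. All ATF4 targets lie to the right of 0, and the C/EBP-linked and the 10 ATF, CEBP and MAF genes spread to both sides.

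Genes within 100 kb were read beside the 10 genes. Of all genes tested 11.2 to 11.9% were called higher and 6.67 to 7.6% lower. ATF3 had 1 kept neighbour, BATF3, and CEBPG 2, and none of these was called. ATF4 had 4 and CEBPB 3, of which 1 each was called higher in all 3 libraries, that of CEBPB being CEBPB-AS1. ATF5 had 9 kept neighbours, of which 3 were called lower in Claret and 2 in eGFP and in Violet. MAFF had 4, of which 2 were called higher in each library. MAFG, itself not called, had 13, of which 1 was higher and 4 were lower in each. CEBPD had 2, of which 1 was lower in each library, and MAFK had 6, of which 1 was higher in Claret and in Violet. BATF3 had 3, of which 1, ATF3, was called. Transcript GC content ranged from 43.9% in CEBPG to 70.0% in CEBPD, and the genes called higher spanned 43.9 to 66.2%.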

How the data were processed

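RNA-seq of 4 libraries was analysed, 1 per group. The deposited read counts per gene are whole numbers with no normalization, and the deposited FPKM table holds the same counts per gene length and library total, per the file headers and the values. HISAT2 2.0.5 and featureCounts 1.5.0-p3 are named in the submitters' processing notes. The genome build, annotation, use of strand and handling of reads matching several genes are not given in the sources used here. Chromosome, start and end equal GENCODE 29 (GRCh38) for 58690 of 58735 genes, and coordinates are 1-based, as deposited.

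Genes with a mean of at least 1 CPM were kept, and TMM factors came from edgeR 4.0.16 (R 4.3.3). A prior count of 2 was added before log2 ratios of CPM were taken. With 1 library per group no quasi-likelihood test can be fitted, so reads of library pairs were compared by a two-sided exact conditional binomial test (SciPy 1.17.1) with Benjamini-Hochberg adjustment over the 14585 genes kept. Intervals are exact 95% (Clopper-Pearson). The script was tested on simulated data. GC correction subtracted a running median of the log2 ratios over 20 bins of transcript GC content. The other alternatives were library-size scaling, DESeq2 1.42.0 size factors, no filter, a filter at 10 CPM, a prior count of 0.5, log2(FPKM + 1), a rule on the whole interval, groups from the treatment field, and leaving out genes that overlap another.

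The 10 genes and all lists were chosen with earlier results of these data known. Genes named are the 10, the FOS and JUN genes, and other bZIP genes called in all 3 slow-cycling libraries. Of each further list up to 3 higher and 2 lower genes with the largest smallest-of-3 ratio are named, plus overlapping and neighbouring genes. Some names were added after their values were seen (PPP1R15A, EIF2S1, NFE2L2, BACH1 and 7 further ATF4 targets). Of the genes this rule selects, some are not reported here.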

Additional observations from a re-analysis of the deposited data

How the results depend on the processing

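Of 231 ratios of single genes to Bulk under the alternatives that kept the titles, 225 kept their direction and side of the threshold, 4 lost the call (all MAFF) and 2 changed sign. Sign changes were confined to uncalled ratios near 0: CEBPD in Violet was 0.03 and BATF3 in Claret 1.5e-05 with library-size scaling. Of 231 ratios between slow-cycling libraries 5 changed sign: CEBPB for Claret against Violet was 0.01 with DESeq2 size factors and with log2(FPKM + 1), BATF3 for eGFP against Violet 0.01 and 0.005 with the same settings, and MAFK for eGFP against Violet -0.01 after GC correction.

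With groups from the treatment field the 10 genes gave 1 higher and 4 lower calls in Claret, 0 and 0 in eGFP, 0 and 0 in Violet, and 6 calls each for Claret against eGFP and Claret against Violet. The medians were then -0.68, 0.09 and 0.13 in Claret, eGFP and Violet, because other pairs of libraries are compared. A filter at 10 CPM removes ATF5, CEBPD and BATF3. It left 0 lower calls in each library, and the medians over the remaining genes were 1.36, 1.45 and 1.38. GC correction gave medians of 0.60, 0.64 and 0.51. The 5 genes that overlap no other gene gave 3 higher calls in Claret and in eGFP, 0 lower calls in each library and medians of 1.49, 1.58 and 1.39, since fewer genes are counted.

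Called FOS and JUN genes in Violet fell from 2 to 1, by the loss of JUND, with DESeq2 size factors, log2(FPKM + 1), the interval rule and GC correction. Called other bZIP genes in Claret fell from 7 to 4 at 10 CPM, 2 with log2(FPKM + 1) and 4 by the interval rule, and in eGFP to 4 at 10 CPM and 3 with log2(FPKM + 1). The single eIF2α call in Claret went to 0 with log2(FPKM + 1), the interval rule and GC correction, and Violet gained 1 with DESeq2 size factors. These counts take calls in either direction. In Violet the ratio of that list nearest the threshold was a low one, that of EIF2S1 (-0.97). The single NRF2 target call went to 0 in Claret and Violet with DESeq2 size factors, log2(FPKM + 1), the interval rule and GC correction, and in eGFP with GC correction. The cause of these changes was not tested.

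No paired analysis was possible because each group holds 1 library and the groups share fewer than 2 replicate numbers. No replicate was left out and no test of the conditions was made, since each group is 1 library. Depth limits the statements on CEBPD and BATF3, with at most 144 reads in a library.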
